A study of Mus musculus with 4 samples.

Results

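Chromatin accessibility was analyzed at 8 genes of the megakaryocyte and platelet programme in single long-term hematopoietic stem cells (LT-HSCs): Vwf, Itga2b, Itgb3, Pf4, Gp1ba, Gp9, Treml1 and Rab27b. The genes were taken by name as known markers of this lineage. No threshold on a measured value entered the choice, but it was made with earlier results of these data known. A peak was assigned to a gene where it overlapped the GRCm38 gene body (GENCODE M21) or the 5000 bp upstream of it. All 8 of 21951 protein-coding genes had at least 1 peak, and together they held 46 of the 93513 peaks.

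The study examined chromatin in LT-HSCs during aging. Its CLCA3A1high and CLCA3A1low samples came from C57BL/6JRj mice aged 22 to 28 months, with LT-HSCs sorted as lineage-negative Sca-1+ Kit+ CD34- CD135- cells and divided with an antibody to the surface protein CLCA3A1. Each was 1 sample of 10000 sorted cells, 2500 from each of 4 pooled mice, so that a sample could not be resolved into animals. Samples of mice aged 3 to 4 months and of a further group aged 22 to 28 months were not analyzed here, since peaks of their table carried no names. The cells of the table used here carried 1 of 2 barcode suffixes, called barcode set 1 and barcode set 2, and no label paired a suffix with CLCA3A1high or CLCA3A1low. The table was therefore treated as 1 pooled sample. Ratios between the sets describe these sets, have no group direction and carry no p-value, because cells are not replicates.

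Megakaryocytes are the large bone marrow cells that shed platelets, and platelets stop bleeding by adhering to damaged vessel walls, binding fibrinogen and releasing granules. Part of the LT-HSC pool carries megakaryocyte markers such as von Willebrand factor and CD41, and cells of this kind are known for a bias toward platelet output and for becoming more frequent with age. The genes of this lineage are known targets of GATA1, of ETS factors such as FLI1, and of RUNX1.

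Sequences upstream of the start are shown first for 4 genes with a promoter peak, because the same ETS word lay in all of them. Each line gives the 200 bases before the RefSeq start (GRCm38.p6), 5′ to 3′ on the strand of the gene. Capitals mark matches to AGGAAG, the core of an ETS site, and to GATAA, the core of a GATA site, on either strand.
Itga2b, chr11:102469884-102470083, minus strand: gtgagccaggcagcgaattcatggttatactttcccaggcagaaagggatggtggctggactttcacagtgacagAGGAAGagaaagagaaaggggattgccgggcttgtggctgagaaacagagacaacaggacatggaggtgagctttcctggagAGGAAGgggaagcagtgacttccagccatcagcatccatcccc
Pf4, chr5:90772235-90772434, plus strand: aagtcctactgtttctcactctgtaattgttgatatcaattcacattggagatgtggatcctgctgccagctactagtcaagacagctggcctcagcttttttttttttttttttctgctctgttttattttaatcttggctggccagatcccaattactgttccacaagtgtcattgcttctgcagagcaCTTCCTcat
Gp1ba, chr11:70638922-70639121, plus strand: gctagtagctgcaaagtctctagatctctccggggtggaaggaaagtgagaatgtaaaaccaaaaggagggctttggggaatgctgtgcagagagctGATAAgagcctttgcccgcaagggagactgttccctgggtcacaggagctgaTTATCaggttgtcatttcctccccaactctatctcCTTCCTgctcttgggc
Gp9, chr6:87777870-87778069, plus strand: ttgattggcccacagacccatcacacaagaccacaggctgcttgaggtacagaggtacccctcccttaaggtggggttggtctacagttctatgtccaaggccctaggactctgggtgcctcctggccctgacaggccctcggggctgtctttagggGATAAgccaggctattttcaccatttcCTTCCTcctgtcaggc
The centres of 2 peaks outside promoters follow. The first is the peak upstream of Gp9, in which the sets differed, and the second is the intragenic peak of Itga2b, which held more counts than any other non-promoter peak of these genes.
Gp9 upstream peak, chr6:87776197-87776396, plus strand: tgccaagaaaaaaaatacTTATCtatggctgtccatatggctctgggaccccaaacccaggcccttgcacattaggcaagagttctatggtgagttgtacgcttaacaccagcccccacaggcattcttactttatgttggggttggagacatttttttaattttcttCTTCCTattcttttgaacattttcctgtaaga
Itga2b intragenic peak, chr11:102466823-102467022, minus strand: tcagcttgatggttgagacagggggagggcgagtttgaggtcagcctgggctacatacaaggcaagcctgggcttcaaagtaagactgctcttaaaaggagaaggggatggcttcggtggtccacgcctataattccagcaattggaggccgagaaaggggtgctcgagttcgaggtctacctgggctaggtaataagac

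GENCODE places exons of noncoding transcripts of Itga2b within both Itga2b windows. The RefSeq promoter table matched 5 of the 8 genes, Itga2b, Pf4, Gp1ba, Gp9 and Treml1, and Vwf, Itgb3 and Rab27b had no entry. AGGAAG lay in the 200 bases before the start of 4 of the 5, with Treml1 as the exception, against 24.7% of 32817 RefSeq promoters of the same length. It ended 4 bases before the start in Pf4, 11 bases before it in both Gp1ba and Gp9, and 38 and 120 bases before it in Itga2b. The longer GATA word AGATAA lay in 0 of the 5 windows, against 7.80% of promoters. The shorter word GATAA, added after the sequences had been seen, lay in Gp1ba and Gp9, against 18.1% of promoters. Further words were searched on both strands: TGTGGT for RUNX, found in Gp9, CATTCC for TEAD, found in Gp1ba, and TGANTCA for AP-1, found in none, against 11.2%, 10.1% and 5.48% of promoters. The Gp9 upstream peak held 1 match each to AGATAA and AGGAAG, and the Itga2b intragenic peak held no match to any of these words. Over 81681 windows of 200 bases at peak centres, AGATAA lay in 8.32% and AGGAAG in 37.7%. A match describes letters in a window, not a bound site.

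The table held 1454 cells, 818 in set 1 and 636 in set 2, with 13050952 and 9820094 counts and no shared barcode. Counts per cell ranged from 224 to 136173, and the median cell held 13358.5 counts in the first set and 12755.0 in the second. Of the 6 LT-HSC genes examined as markers, all had peaks. At equal depth the most open was Mecom, a transcription factor that maintains stem cells, in 77.2% of set 1 and 68.0% of set 2 cells. The least open was Procr, in 4.54% and 2.32%. A locus was open where any of its peaks held a count, and this order was not adjusted for peak number. Mecom had 52 peaks and Procr 1. Of 17 neutrophil, monocyte, lymphoid, mast cell and basophil markers, 11 reached 20 counts. The most open of these at equal depth were Ebf1, in 28.6% of set 1 and 22.3% of set 2 cells, and Prtn3, in 27.2% and 27.0%. The least open was Gzmb, in 0.40% and 1.43%. Peak number differed here too, with 18 peaks in Ebf1, 4 in Prtn3 and 1 in Gzmb. Cd3e, Ly6c2 and others had no peak, and Il7r and Cd79a held 3 and 5 counts. Marker lists also differed between the sets. The LT-HSC loci summed to 677 CPM (counts scaled to 1000000 per set) in set 1 and 575 in set 2. Of the 6, 3 were higher in set 1 by a log2 ratio of 0.5 or more, against 6.09% of all gene loci with at least 20 counts. Fgd5 was lower, at -0.32 (95% counting interval -0.48 to -0.16). The progenitor loci Cd34, Flt3 and Cd48 summed to 112 and 203 CPM, with 2 of 3 lower by 0.5 or more, against 4.98% of all such loci. The part of these differences in the results below was not tested.

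All 8 loci had a higher CPM in set 1 than in set 2, in a list chosen with earlier results of these data known. The log2 ratio, computed with a pseudocount of 1 CPM that shrinks low peaks toward 0, had a median of 0.38 over the 8 loci, against 0.0036 over the 16988 gene loci with at least 20 counts, whose middle 50% lay between -0.15 and 0.17. A ratio above 0 was found in 50.7% of those loci. The 95% interval of the ratio lay above 0 in 7 of the 8, all but Itga2b, against 22.3% of all loci. In cells thinned to equal depth, with fewer counts, it stayed above 0 only for Gp1ba (0.21 to 0.98) and Rab27b (0.09 to 0.56). With each peak counted once per cell, the intervals of Itgb3 and Pf4 also reached 0. The share of all loci was not computed under these 2 settings. Intervals here cover counting error only and are too narrow, because most counts come in pairs from the ends of 1 fragment and 88.7% of the values above 0 were even. At the size chosen for a call, a log2 ratio of 0.5 or more, 1 locus was higher, Treml1, against 6.09% of all loci, and 0 were lower, against 4.98%. This call moved to another gene when all cells were thinned to equal depth, which left Treml1 at 0.27 and put Gp1ba at 0.59. Summed over the 46 peaks, accessibility was 610.5 CPM (interval 597 to 624) in set 1 and 506 CPM (492 to 520.5) in set 2, a log2 ratio of 0.27 (0.22 to 0.32). The 9 promoter peaks gave 0.32 (0.24 to 0.40) and the 37 other peaks 0.23 (0.17 to 0.30).

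**Figure D1:**
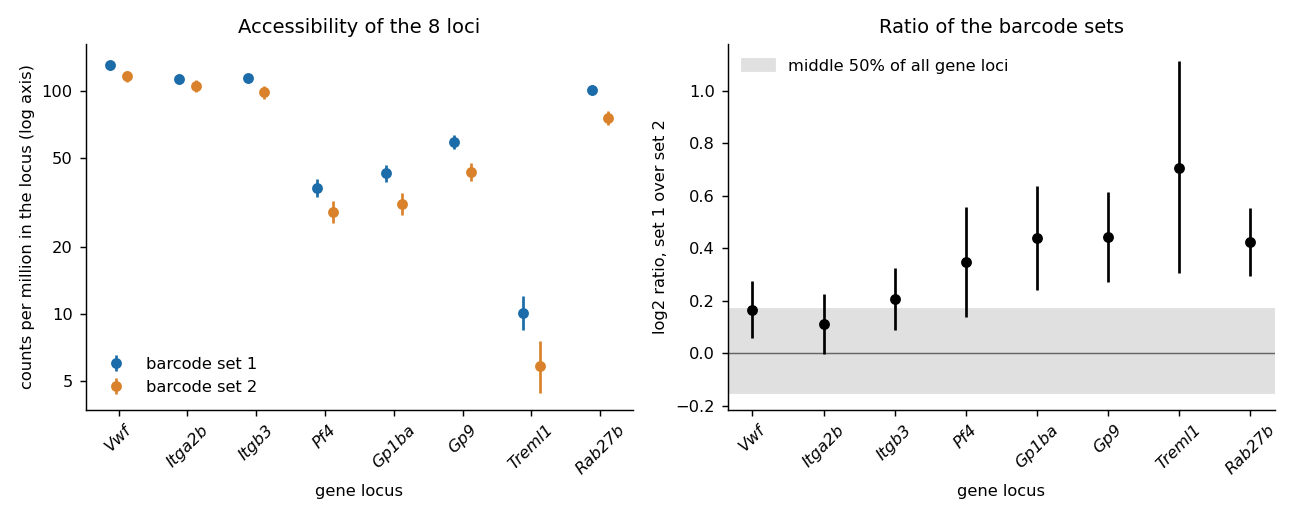
The left panel plots CPM in each locus on a log axis for barcode set 1 (blue) and set 2 (orange), and the right panel the log2 ratio of set 1 over set 2, with 95% counting intervals as bars and the middle 50% of all gene loci as a grey band. All 8 points of the right panel lie above 0, from 0.11 for Itga2b to 0.71 for Treml1.

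Single peaks showed that these locus sums joined peaks of unlike behaviour. Of the 46 peaks, 29 lay in introns, 16 touched an exon and 1 lay upstream of its gene. A minimum of 50 counts was reached by 32 peaks. Of the 14 below it, only those past a log2 ratio of 1 in either direction are given. Of the 32, 24 had a ratio above 0, against 52.8% of the 63588 peaks with that many counts. A log2 ratio of 1 or more was reached by 6 of these peaks, in Vwf, Itgb3, Gp9 and Rab27b, against 5.09% of all peaks, and 0 were lower by that amount, against 5.95%. This split depends on the minimum. Just below it, Itgb3 peaks at 22.4 kb (44 counts) and 31.1 kb (40 counts) were at -1.63 and -1.30. An Itgb3 peak at 18.2 kb (39 counts) and a Vwf peak at 4.49 kb (38 counts) were at 1.53 and 1.23. Peaks of 1 gene share their locus and are not separate observations of the gene. Among the 9 promoter peaks, meaning those within 1000 bp of a start of their own gene, 6 had a ratio above 0, against 51.8% of 15355 promoter peaks.

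**Figure D2:**
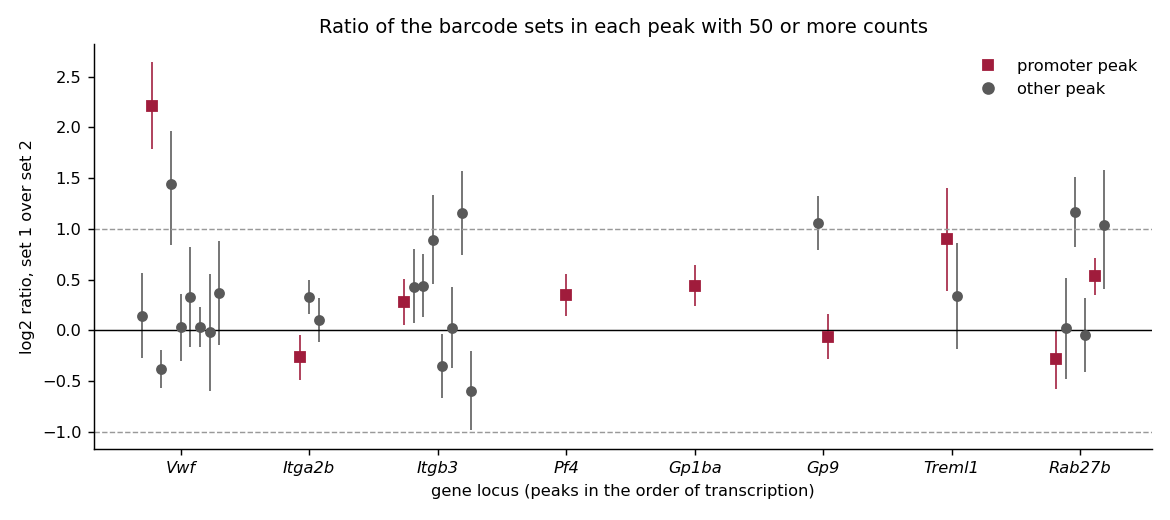
The log2 ratio of set 1 over set 2 is plotted for each of the 32 peaks with 50 or more counts, in the order of transcription within each gene, with promoter peaks as red squares, other peaks as grey circles and 95% counting intervals as bars. The Vwf promoter peak at 2.21 stands above the other points, and the dashed lines mark log2 ratios of 1 and -1.

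Vwf encodes von Willebrand factor, the multimeric ligand that tethers platelets to collagen. Its 14 peaks spread over the gene on chromosome 6 (chr6:125546774-125686679, plus strand). Only the peak at chr6:125552017-125553338 covered a start of the gene, that of its consensus coding transcript at position 125552948. No peak covered the start of the GENCODE gene body at 125546774. This start peak held 257 counts in set 1 and 34 in set 2, which is 19.7 CPM (17.4 to 22.3) and 3.46 CPM (2.40 to 4.84). The log2 ratio was 2.21 (1.79 to 2.64), and the intervals of the sets did not overlap. It was open in 110 of 818 cells of set 1 and in 15 of 636 cells of set 2. After thinning to 4899 counts per cell, it was open in 43 of 749 cells (5.74%, exact binomial interval 4.19 to 7.66) and in 7 of 560 cells (1.25%, 0.504 to 2.56). The difference was therefore also present at equal depth, with a log2 ratio of CPM of 1.86. Of 15355 promoter peaks, 3 had a ratio at least as high, Vwf itself and those of Adcy6, an adenylate cyclase, at 2.43, and Pola2, a subunit of DNA polymerase alpha, at 2.53. Both of these were named after their values had been seen.

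The remaining 13 Vwf peaks together did not follow the start peak. They summed to 112 CPM in set 1 and 113 CPM in set 2, a log2 ratio of -0.02 (-0.14 to 0.09). The start peak therefore took 15.0% (13.3 to 16.8) of the counts of the locus in set 1 and 2.96% (2.06 to 4.11) in set 2. The intronic peak 20.2 kb into the gene, which had the most counts of all Vwf peaks, was lower in set 1, at 34.6 CPM against 45.3 CPM (log2 ratio -0.38, -0.57 to -0.19). The peak at 50.8 kb, which touches an exon, was level, at 36.2 and 35.4 CPM (0.03, -0.17 to 0.23). An intronic peak at 31.0 kb was higher in set 1, with 62 counts against 11 (1.44, 0.84 to 1.96). Within the same cells, the start peak and the other Vwf peaks were not opened together beyond a weak correlation of 0.028 in set 1 and -0.046 in set 2.

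Itga2b and Itgb3 encode the alpha IIb and beta 3 chains (CD41 and CD61) of the fibrinogen receptor that links platelets in a clot. Itga2b lies on the minus strand of chromosome 11 (chr11:102453297-102470122) with 3 peaks. Its promoter peak was lower in set 1, at 25.8 CPM against 31.3 CPM (log2 ratio -0.27, -0.49 to -0.05), whereas the intragenic peak 2.96 kb downstream was higher, at 58.2 CPM against 46.1 CPM (0.33, 0.16 to 0.50). These opposite directions left the locus at 114 and 105 CPM, with an interval that reached 0 (0.11, -0.0014 to 0.23). The third peak, at 13.6 kb, held 30.2 and 28.1 CPM (0.10, -0.12 to 0.32).

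Itgb3 also lies on chromosome 11 (chr11:104608000-104670476, plus strand) and had 17 peaks, more than any other of the 8 genes. Its promoter peak was modestly higher in set 1, at 30.0 CPM against 24.6 CPM (0.28, 0.05 to 0.50). The intronic peak at 6.31 kb was higher, at 16.6 against 12.02 CPM (0.44, 0.13 to 0.75). The peak at 29.3 kb, which touches an exon, was lower, at 11.0 against 14.4 CPM (-0.35, -0.67 to -0.03). A peak at 49.9 kb in an intron differed more than any other Itgb3 peak with 50 counts, at 12.1 against 4.89 CPM (1.15, 0.74 to 1.57), and it was open in 70 of 818 and 22 of 636 cells. Peaks of both directions thus lay within this 1 gene, and the locus ratio of 0.21 (114 and 99.0 CPM) was their balance.

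**Figure D3:**
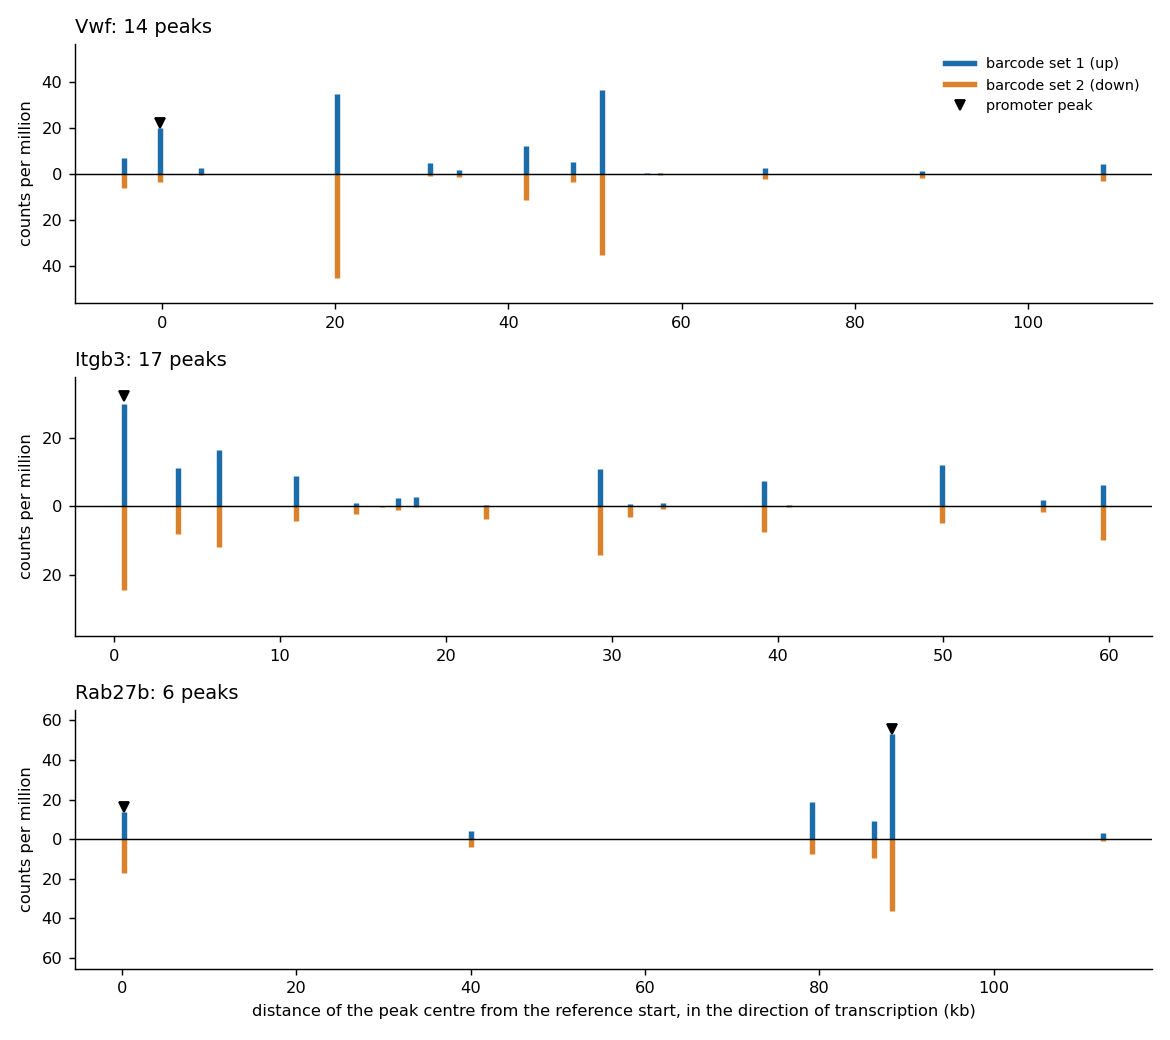
Each peak of Vwf, Itgb3 and Rab27b is drawn at the distance of its centre from the reference start, in kb in the direction of transcription, with CPM of set 1 upward in blue and of set 2 downward in orange, and promoter peaks under a black triangle. The Vwf start peak reaches 19.7 CPM upward and 3.46 CPM downward, while the Vwf peak at 20.2 kb reaches 34.6 and 45.3 CPM and that at 50.8 kb 36.2 and 35.4 CPM.

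Gp1ba and Gp9 encode 2 chains of the GPIb-IX complex, the platelet receptor for von Willebrand factor. Gp1ba (chr11:70639122-70642036, plus strand) had 1 peak, which covered its start and was higher in set 1, at 42.8 CPM (39.3 to 46.5) against 31.3 CPM (27.9 to 35.0), a log2 ratio of 0.44 (0.24 to 0.64). It was open in 214 of 818 and 115 of 636 cells. Gp9 (chr6:87778072-87779768, plus strand) had 2 peaks that behaved differently. The peak over its start was level, at 27.3 and 28.5 CPM (-0.06, -0.28 to 0.16). The upstream peak at chr6:87775626-87776967, 1.78 kb before the start, held 418 counts in set 1 and 146 in set 2, or 32.0 and 14.9 CPM (1.06, 0.80 to 1.32), and was open in 160 of 818 and 60 of 636 cells. This peak also covers the start of the noncoding gene Gm43904 on the same strand (chr6:87776143-87777480), so it cannot be assigned to Gp9 by position alone. Without it, the Gp9 locus changed from 0.44 to the -0.06 of the promoter peak. The RefSeq start of Gp9 lies 2 bases before that of GENCODE.

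Pf4 and Treml1 encode alpha-granule proteins, the chemokine platelet factor 4 and the receptor TLT-1, and Rab27b encodes a small GTPase of granule secretion. Pf4 (chr5:90772435-90773383, plus strand) had 1 peak, at its start, with 36.8 CPM (33.6 to 40.2) in set 1 and 28.7 CPM (25.5 to 32.3) in set 2, a log2 ratio of 0.35 (0.14 to 0.56). It was open in 181 of 818 and 109 of 636 cells. Treml1 (chr17:48359916-48367176, plus strand) was the locus with the fewest counts, 132 in set 1 and 57 in set 2. Its promoter peak gave 5.98 against 2.75 CPM (0.90, 0.39 to 1.40), and its intronic peak at 3.17 kb 4.14 against 3.05 CPM (0.34, -0.18 to 0.86). Each of these peaks was open in 30 cells of set 1 and 13 of set 2.

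Rab27b (chr18:69979131-70141605, minus strand) has annotated starts far apart, and the peaks at 2 of them differed. At the upstream start, accessibility was 13.9 CPM in set 1 and 17.2 CPM in set 2 (-0.29, -0.58 to 0.0068). At the start 88.4 kb downstream, it was 52.9 CPM against 36.3 CPM (0.53, 0.35 to 0.72), and the peak was open in 251 of 818 and 141 of 636 cells. The intronic peak at 79.2 kb, upstream of that second start, was higher by more, at 18.6 against 7.74 CPM (1.17, 0.82 to 1.52). The neighbouring intronic peak at 86.3 kb was level, at 9.04 and 9.37 CPM (-0.05, -0.41 to 0.32). A small intronic peak at 112.6 kb had 41 counts against 10 (1.04, 0.41 to 1.58). The whole Rab27b locus held 101.8 CPM in set 1 and 75.7 CPM in set 2 (0.42, 0.29 to 0.55). The peaks above 0.5 all lay at 79.2 kb or further from the upstream start, with the level peak at 86.3 kb among them.

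Levels of the 8 genes were compared with one another only as CPM per kb of promoter peak. Pooled over both sets, the downstream Rab27b start was the most accessible, at 33.3 CPM per kb, followed by Gp1ba at 26.9, Itga2b at 18.4, Pf4 at 18.2, the upstream Rab27b start at 13.9, Gp9 at 12.8, Itgb3 at 11.0, Vwf at 9.62 and Treml1 at 3.69. The median of all 16788 promoter peaks was 14.2 CPM per kb, with quartiles of 7.66 and 23.2. These genes of a differentiated lineage were thus spread across the usual range of promoters in LT-HSCs. Within sets the order changed at some places. Itga2b lay below Pf4 in set 1, at 16.9 (15.2 to 18.8) against 20.1 (18.4 to 22.0), and above it in set 2, at 20.5 (18.2 to 22.9) against 15.7 (13.9 to 17.7). Vwf lay between Itga2b and the upstream Rab27b start in set 1, at 14.9 (13.1 to 16.8), with an interval that overlapped both, and near Treml1 in set 2, at 2.62 (1.81 to 3.66) against 2.21 (1.46 to 3.22). The intervals of the upstream Rab27b start, Gp9 and Itgb3 overlapped one another in set 1. In shares of cells at equal depth, the median member promoter peak was open in 9.55% of cells, against 8.79% for all promoter peaks, and the median of the other member peaks was 1.53%, against 1.22% for all other peaks.

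To compare cells, each was thinned to 4899 counts, which kept 749 cells of set 1 and 560 of set 2 and left out 69 and 76 shallower ones. A locus was called open where any of its peaks held a count. Rab27b was open in 33.5% (30.1 to 37.0) of set 1 and 27.1% (23.5 to 31.0) of set 2 cells, and Gp1ba in 15.0% (12.5 to 17.7) and 10.9% (8.44 to 13.8). At equal depth the intervals of the sets overlapped at all 8 loci. The Vwf locus was open in 37.7% and 34.8%, Itga2b in 32.4% and 30.9%, Itgb3 in 34.4% and 31.1%, Gp9 in 18.4% and 17.5%, Pf4 in 12.7% and 10.0%, and Treml1 in 3.34% and 2.32% of cells. Without thinning these shares were higher, for example 57.1% and 51.6% for Vwf.

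**Figure D4:**
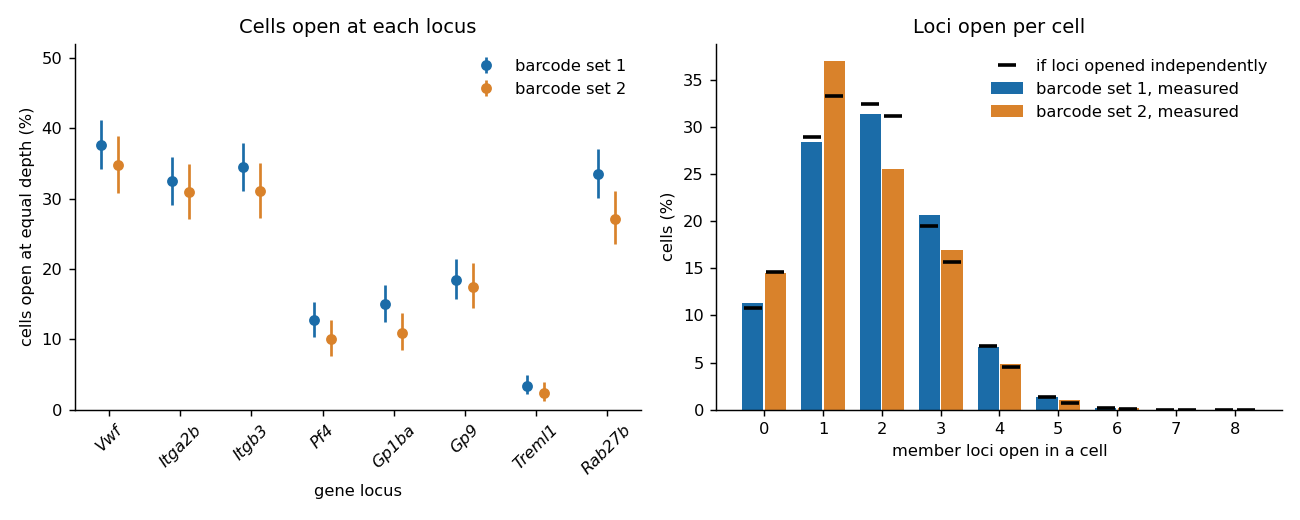
The left panel plots the percent of cells open at each locus after thinning to 4899 counts per cell, with exact binomial 95% intervals, for set 1 (blue) and set 2 (orange). The right panel plots the percent of cells with 0 to 8 member loci open as bars, and black dashes give the percent expected if the loci opened independently. The bars lie near the dashes in set 1, and in set 2 cells with 1 locus open were more frequent, 37.0% against 33.2%, and cells with 2 less frequent, 25.5% against 31.2%.

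The co-accessibility of the 8 loci asks whether the genes opened together in the same cells. A cell had a mean of 1.87 of the 8 loci open in set 1 (SD 1.16 across cells) and 1.65 in set 2 (SD 1.15). No locus was open in 11.3% of set 1 cells and 14.5% of set 2 cells, against 10.8% and 14.6% if the loci had opened independently at their own rates. At the other end, 4 or more loci were open in 8.14% and 6.07%, against 8.35% and 5.30%. The variance of the number of open loci was 1.01 and 1.09 times that of independent loci. Cells with many open platelet loci were thus about as frequent as independent loci would give at this depth.

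The correlation of open calls over the 28 pairs of loci had a median of 0.014 in set 1 and 0.016 in set 2, against 0.0033 and 0.0029 over all pairs of gene loci more than 1000000 bp apart or on other chromosomes. All pairs here means loci open in 5% to 95% of cells, whereas Treml1, at 3.34% and 2.32%, was kept among the members. In set 1 the lowest and highest correlations were -0.086 and 0.064, where the 5th and 95th percentiles of all pairs were -0.055 and 0.066. In set 2 they were -0.067 and 0.12, beside percentiles of -0.065 and 0.076. The lowest value of set 2, for Treml1 and Rab27b, rested on 1 cell open at both, against 3.53 if independent. At the level chosen for a call, 0.1 or more, 0 pairs were called in set 1, against 0.589% of all pairs, and 1 in set 2, against 1.45%. That pair was Gp1ba and Rab27b, open together in 26 cells of set 2 against 16.6 if independent, with correlations of 0.12 in set 2 and 0.035 in set 1. The chains of 1 receptor gave values of like size. Itga2b and Itgb3 gave 0.014 and 0.027, and Gp1ba and Gp9 gave 0.023 and 0.020. Vwf gave 0.064 and 0.038 with Gp9 and -0.086 and 0.021 with Gp1ba, the other chain of its receptor. Correlations this weak in sparse counts are descriptions of 749 and 560 cells that share a library, and pairs share loci.

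**Figure D5:**
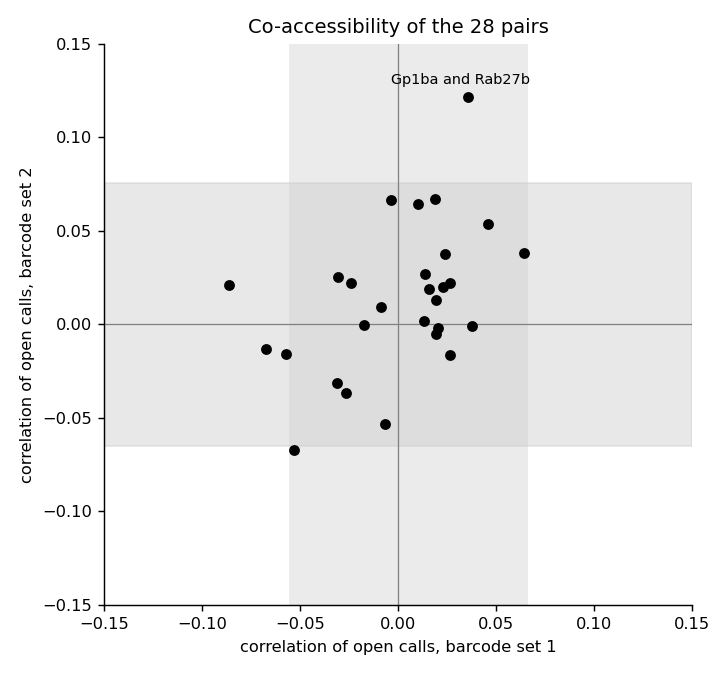
Each point is 1 of the 28 pairs of loci, with the correlation of open calls across 749 cells of set 1 on the x axis and across 560 cells of set 2 on the y axis. Grey bands span the 5th to 95th percentile, in each set, of all pairs of loci open in 5% to 95% of cells, a limit not set for the member pairs. Points scatter around 0, and the pair of Gp1ba and Rab27b at 0.12 in set 2 alone lies above 0.1.

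The Vwf start peak was examined in the same way, since it differed between the sets. In set 1 it was open in 7.25% (3.53 to 12.9) of the 138 cells with no other member locus open and in 6.30% (2.76 to 12.03) of the 127 cells with 3 or more open. In set 2 it was open in 2 of 133 and 1 of 72 such cells. The intervals overlapped, and no trend with the number of other platelet loci open could be seen at this depth.

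Loci elsewhere in the genome whose open calls were most like a member in set 1 had lower values in set 2. For Vwf these were Pim2, Gfpt1 and Chd9, at correlations of 0.16, 0.15 and 0.14 in set 1 and 0.022, 0.087 and -0.024 in set 2. For Rab27b they were Tspan14, Ttf2 and Tagln3, at 0.14 each in set 1 and -0.024, 0.049 and -0.037 in set 2. For Itga2b they were Rida, Axin2 and Smg9, at 0.14 each in set 1 and 0.059, -0.0039 and 0.048 in set 2. These loci were picked as the highest in set 1 among those open in 5% to 95% of cells, so that only the values of set 2 were free of the choice.

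A wider list of 28 other platelet genes was compared with the 8. Of these, 26 reached 20 counts and Gp6, the collagen receptor, and Ppbp, a chemokine, had no peak. A ratio above 0 was found in 14 of the 26, with a median of 0.03, against 8 of 8 and 0.38 for the genes above. Both lists were chosen with earlier results of these data known, so the contrast was not free of that choice. At 0.5 or more, 1 was higher, against 6.09% of all loci, the transcription factor Gata1 at 1.45 on 37 and 4 counts. By that size 2 were lower, against 4.98%, the collagen receptor chain Itga2 at -0.81 and the ADP receptor P2ry12 at -0.94. The genes with the most counts were the cofactor Zfpm1 (0.04), the ETS factor Fli1 (-0.13) and Nbeal2, of granule sorting (0.03). Next came the transcription factor Nfe2 (0.08), the signalling protein Plek (-0.32) and the thrombin receptor F2rl3 (0.25). By role, the median was 0.08 over 5 adhesion receptors, -0.12 over 5 agonist receptors and 0.03 over 5 genes of granule and secreted proteins and their sorting. It was -0.06 over 6 signalling and cytoskeletal proteins and 0.08 over 5 transcription factors. Accessibility summed over the 28 genes was 1991 CPM in set 1 and 2047 CPM in set 2 (log2 ratio -0.04, -0.07 to -0.01). This sum is carried by the few loci with the most counts, and by locus the list was level, with 6 intervals above 0 and 6 below.

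Some loci of other lineages lay past a log2 ratio of 0.5, in both directions. Over all gene loci with at least 20 counts, 6.09% were higher and 4.98% lower by that size. In lists this short, 1 call cannot show a difference from those shares. The erythroid genes had 2 of 6 higher and 1 lower by 0.5 or more, with sums of 160 and 131 CPM. The 5 neutrophil and monocyte genes with 20 counts had 0 higher and 1 lower, Mpo at -0.57, with sums of 159 and 173 CPM. The 4 lymphoid genes had none past that size, at 193 and 172 CPM, the 2 mast cell and basophil genes had 1 lower, at 9.50 and 11.4 CPM, and the 4 broadly used genes, Gapdh, Actb, Tbp and Hprt, had none, at 389.9 and 391 CPM. Their part in the ratios of the platelet loci was not tested.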

How the data were processed

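The authors processed the reads with Cell Ranger ATAC 1.2.0 against mm10 (GRCm38) and deposited whole-number counts of Tn5 cut sites per peak and cell barcode, with no normalization stated. Cells and peaks were those that the pipeline selected, and any equalisation of depth is not given in the sources used here. A second deposited table was not used here, because its rows carried no peak names. The 8 genes, the other gene lists and the thresholds were chosen with earlier results of these data known.

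From the deposited counts, values were summed per locus and barcode set, scaled to 1000000 counts of all peaks, and compared as log2 ratios with a pseudocount of 1 CPM. Loci needed 20 counts and single peaks 50. Peak positions were read as counted from 0 and are printed as counted from 1. A promoter peak overlapped the window from 1000 bp before to 1000 bp after a start (GENCODE M21). Distances run from the start of the consensus coding transcript. Intervals are 95% exact Poisson, conditional binomial for ratios, and Clopper-Pearson for shares, and cover counting error only. For values per cell, counts were thinned without replacement to the 10th percentile, and co-accessibility is Pearson's correlation of open calls. The pairs of all gene loci were limited to loci open in 5% to 95% of cells. The member pairs were not, and Treml1 lay below 5% in both sets. No doublet caller was run, and 57 cells above 3 times the median counts were kept. Scripts were tested on simulated data. Python 3.11.15, numpy 2.4.6 and scipy 1.17.1 were used. Named were all 8 genes, their promoter peaks, the 2 other peaks with the most counts per gene, any peak past a log2 ratio of 1 with 50 counts, the 3 loci most correlated with Vwf, Rab27b and Itga2b, and the 6 other platelet genes with the most counts. Genes named outside this rule are those called in a list and examples from the marker lists. Peaks named with fewer than 50 counts are those past a log2 ratio of 1 in either direction. A gene of the wider platelet list is not reported here and was left out of its counts.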

Additional observations from a re-analysis of the deposited data

How the results depend on the processing

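No paired analysis was possible because each group had 1 pooled sample and no suffix was paired with a sample, and no replicate could be left out. Scaling by median-of-ratios, counting each peak once per cell, a pseudocount of 0.1 CPM and a minimum of 50 counts or none kept the number of loci past the fold at 1. Leaving out peaks at the start of another protein-coding gene removed 0 of the 46 peaks and so tested nothing, and it did not concern the Gp9 upstream peak, which covers the start of a noncoding gene. The number was 2 without cells above 3 times the median counts, where Gp1ba passed at 0.52, and 0 at a log2 ratio of 1. The summed ratio stayed between 0.24 and 0.28 except in thinned cells, where it was 0.21. The number of loci above 0, a result added after seeing the data, was 8, or 7 in thinned cells (Itga2b -0.0032) and with gene bodies alone (Gp9 -0.062). The Vwf start peak, also added, ran from 1.86 in thinned cells to 2.47 with the smaller pseudocount. With promoters taken within 2000 bp, which joins further peaks, the Itga2b promoter was 0.12, Vwf 1.37 and Gp9 0.44. In thinned cells the Treml1 promoter was 0.26 (-0.65 to 1.19), Itgb3 0.08 (-0.37 to 0.54) and Itga2b -0.40 (-0.83 to 0.03). Promoter intervals stayed clear of 0 there only for Vwf, Gp1ba and Rab27b. With each peak counted once per cell, they did so only for Vwf and Gp1ba. Loci open per cell rose with depth, to 2.90 and 2.47 at 9798 counts and to 2.91 and 2.45 with no thinning. The median co-accessibility was 0.10 and 0.13 with no thinning, when depth varied between cells, and at most 0.027 in either set under the other settings, with -0.0041 in set 1 at 9798 counts and -0.00069 with another seed. Depth moved the shares of open cells and left 14 of the 46 peaks under 50 counts.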
